A study of Mus musculus with 4 samples.

Results

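Cadherins are calcium-dependent adhesion proteins of the cell surface. Classical cadherins bind like molecules on neighbouring cells and hold the actin cytoskeleton through catenins, and type I and type II members differ in their adhesive binding pocket. Protocadherins carry more ectodomain repeats, do not bind catenins in the classical way and guide contacts between neural cells. In the oligodendrocyte lineage such proteins take part in contacts with axons, with other glia and with vessels while progenitors migrate and later extend myelin-forming processes.

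Open chromatin was examined here at 34 genes, 23 of them cadherins and 11 of them protocadherins, out of 21887 protein-coding genes. They were chosen by name as every protein-coding gene whose symbol is Cdh or Pcdh followed by a number only, which leaves out the clustered Pcdha, Pcdhb and Pcdhg genes. Accessible DNA was cut and tagged by the transposase Tn5 (Omni-ATAC-seq), on 50000 mouse cells per library with 30 min of transposition at 37 °C. The 2 OL libraries came from oligodendrocytes sorted for the surface antigen O1, and the 2 OPC libraries from oligodendrocyte progenitor cells, with each of the lines 129O1 and EpiSC5, both epiblast stem cells, giving 1 library of each kind. OPCs of both lines had been kept in medium with 20 ng/mL of bFGF and of PDGFA and no SHH, then purified at 4 passages as cells positive for NG2 and CD140a and grown further. The mice of origin were 129SvEv and 129S1/SvImJ, which the labels do not clearly assign to a line, so the lines are named here by line only. All cells are cultured derivatives of pluripotent stem cells, and no genetic change or other treatment is named for either group. The labels do not say whether a line was differentiated more than once, so the spread within a group is that between 1 library of each line.

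The lists hold 127196 and 152595 peaks in the OL libraries of 129O1 and EpiSC5, against 129534 and 125002 in the OPC libraries. Peaks covered 35.0 and 41.2 Mb in OL, against 38.6 and 44.1 Mb in OPC, with median widths of 190 and 192 bp in OL and 201 and 237 bp in OPC. The lists give no read counts, so the depth is unknown. Of 8 oligodendrocyte marker genes, 5 were called higher in OL, and the list summed to 20.95 and 23.00 kb of covered sequence in OL, against 9.78 and 12.43 kb in OPC. Of 5 OPC markers none was called by limma and 1 was higher at an unadjusted p under 0.05, with sums of 22.22 and 23.37 kb in OL, against 19.98 and 20.20 kb in OPC, so the progenitor label is not set apart by the coverage of these genes. Of 5 astrocyte markers 2 were called lower, with sums of 6.75 and 6.38 kb in OL, against 9.10 and 9.23 kb in OPC. Of 5 neuron markers 2 were called lower, with 16.08 and 14.19 kb in OL, against 14.34 and 17.13 kb in OPC. All these marker counts stand against 11% called higher and 8.63% called lower over all tested genes. The part of other cell types in the results was not tested. Of 4 epithelial and pluripotent markers, the pluripotency gene Pou5f1 alone had no peak in any library. That list summed to 1.52 and 1.34 kb in OL, against 1.24 and 0.95 kb in OPC, and its 1 tested gene was called higher.

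The quantity used throughout is the sequence covered by peaks in a gene region, meaning the annotated gene with 2 kb on each side, after scaling each library to the mean total of the 4 lists. It is given as scaled kb, always for the 129O1 library and then the EpiSC5 library. Differences are OL minus OPC of log2(bp + 200), and the added 200 bp shrinks the difference of sparsely covered regions. Coverage was tested by limma over the 14543 gene regions with a mean of at least 500 bp, and a gene was called where the Benjamini-Hochberg adjusted p lay below 0.05. With 2 libraries per group an exact permutation test of a single gene cannot go below p = 0.33, so the calls rest on a spread pooled over genes. In bulk cells, a peak in fewer cells and a weaker peak in every cell cannot be told apart.

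Of the 34 genes, 26 had enough coverage to be tested and 8 were called. Coverage was higher in OL at Cdh17, Cdh20 and Cdh10, and lower in OL at Cdh26, Pcdh18, Cdh18, Pcdh1 and Cdh22. Over all tested genes 11% were called higher and 8.63% lower, 1602 and 1255 genes, against which 3 higher and 5 lower of 26 stand. Without scaling to the list totals the split over all genes turned to 197 higher and 386 lower, and among the 26 genes to 0 higher and 2 lower. With median-of-ratios scaling the 26 held 3 higher and 3 lower. An unadjusted p under 0.05 was found for 11 of the 26. The median difference was 0.05 over the 26 genes and -0.02 over all tested genes. The family's genes are long, with a median of 135.6 kb against 26.7 kb for all tested genes. Among genes of at least 100 kb, 22.2% were called higher and 15.4% lower out of 2330, and of the 15 family members of that length 2 were called in each direction. Their median difference was 0.05, against 0.07 for all genes of that length. The share of higher calls was thus close to that of all genes. The share of lower calls was above it, but 2 of these 5 genes reached the minimum coverage through OPC only, and among long genes the family's share was not above that of the rest.

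The summed coverage of all 34 regions was 127.5 and 114.2 kb in OL, against 124.5 and 109.0 kb in OPC. In each line the sum was slightly higher in OL, and the lines differed more from each other than the cell types did. Peaks were present in all 4 libraries at 29 genes. Cdh7 had no peak in any library, and Cdh9, Cdh12, Cdh17 and Pcdh12 lacked one in at least 1 library. The genes left untested were Cdh3, Cdh5, Cdh7, Cdh9, Cdh12, Cdh16, Pcdh12 and Pcdh20. The means nearest below the 500 bp minimum were those of Cdh16 with 476 bp and Cdh5 with 444 bp, and the nearest above were those of Cdh26 with 542 bp and Cdh19 with 543 bp. Cdh17, Cdh26 and Cdh18 passed that minimum through the group in which they were high, so a difference was bound to be seen there, and no count over the tested genes is read as support.

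**Figure D1:**
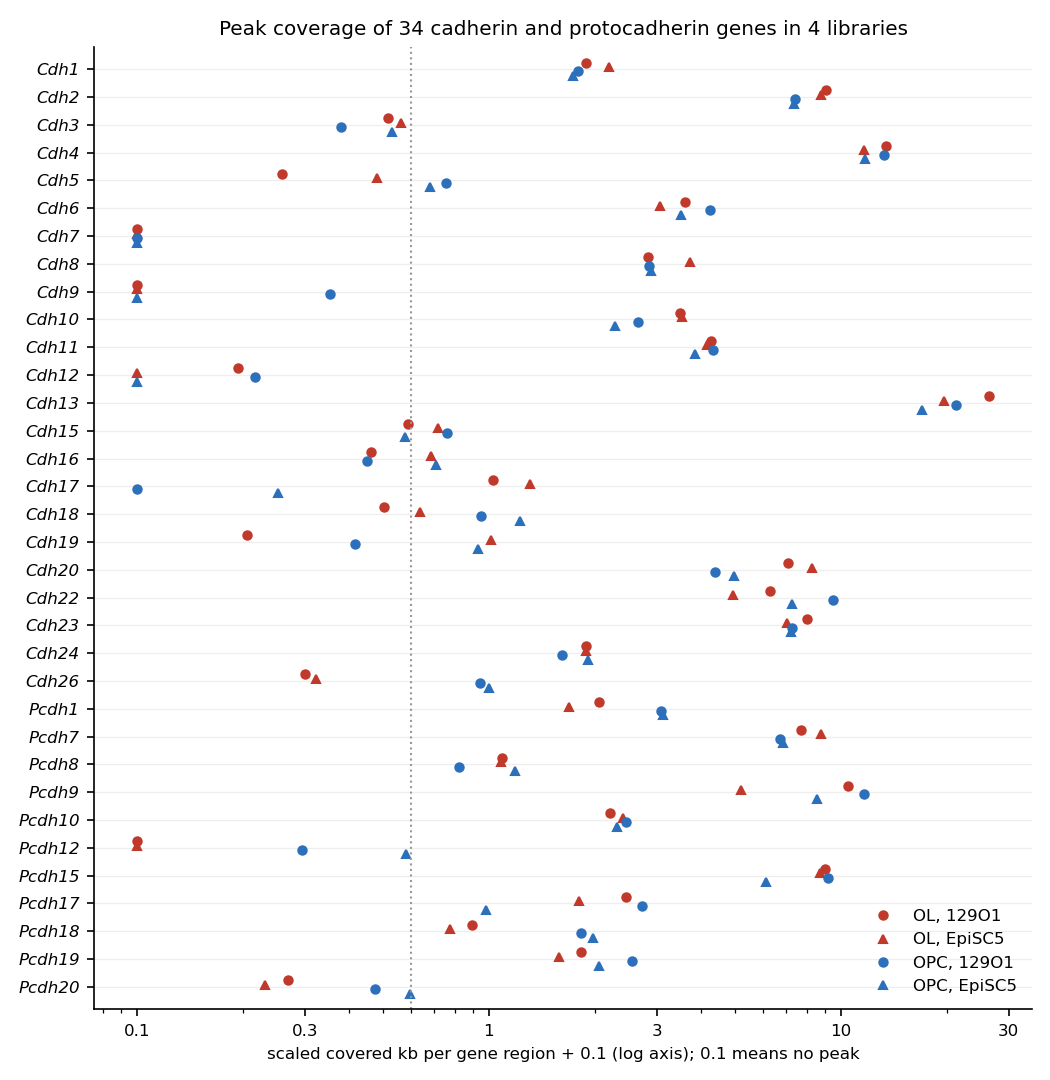
Scaled covered kb per gene region plus 0.1 on a log axis, 1 point per library for each of the 34 genes, with OL in red, OPC in blue, circles for 129O1 and triangles for EpiSC5. The dotted line marks the 500 bp minimum for a test as a mean over libraries, Cdh7 sits at 0.1 because it has no peak, and both red points lie clear of both blue points at Cdh17, Cdh20 and Cdh26.

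Among the classical type I cadherins, which include the textbook E-, N- and R-cadherins, none of 4 tested genes was called by limma, and 1, Cdh2, had an unadjusted p under 0.05. Cdh2 encodes N-cadherin, the main classical cadherin of neural tissue, and was covered over 9.0 and 8.69 kb in OL, against 7.32 and 7.28 kb in OPC. Both OL libraries lay above both OPC libraries, with 33 and 34 peaks in OL and 24 and 22 in OPC. The difference of 0.27 ± 0.12 (SE) had an adjusted p of 0.142. Cdh4, the R-cadherin gene, was covered over 13.3 and 11.6 kb in OL and 13.2 and 11.6 kb in OPC, with a difference of 0.01 ± 0.12. Its groups overlapped fully, and the lines differed while the cell types did not separate.

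Cdh1 encodes E-cadherin, the adhesion protein of epithelia and of pluripotent cells. It was covered over 1.79 and 2.10 kb in OL, against 1.69 and 1.63 kb in OPC (difference 0.20 ± 0.16, adjusted p = 0.454). The groups did not overlap in covered sequence, but the peak numbers, 5 and 6 in OL against 7 and 5 in OPC, did, and on peak numbers the difference was -0.21. With the best 50% of peaks by q it was 0.78 with an adjusted p of 0.0396, which is past the threshold. The epithelial and pluripotent marker list summed to 1.52 and 1.34 kb in OL, against 1.24 and 0.95 kb in OPC. Of its 4 genes 1 was tested and was called higher in OL, and its part in the Cdh1 value was not tested. Cdh15, the M-cadherin gene of muscle, had 0.489 and 0.618 kb in OL and 0.660 and 0.479 kb in OPC, which overlap. Cdh3, the P-cadherin gene, stayed below 0.5 kb in every library.

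The type II cadherins held calls in both directions. Of 13 genes 9 were tested, and Cdh20 and Cdh10 were called higher while Cdh18 and Cdh22 were called lower. These counts stand against 11% higher and 8.63% lower over all tested genes. Cdh20, a type II cadherin of neural progenitors and of the neural tube, lies at chr1:104768340-104995481 of GRCm38.p6. It was covered over 7.01 and 8.18 kb in OL, against 4.31 and 4.87 kb in OPC. Peak numbers were 26 and 36 in OL, against 15 and 15 in OPC, and on both counts the groups did not overlap. The difference was 0.70 ± 0.14 with an adjusted p of 0.00155 by limma, and 0.68 within 129O1 and 0.72 within EpiSC5. It kept its call when any 1 library was left out and when peaks were counted, with a difference of 0.86 and an adjusted p of 0.0266. It lost the call with the best 50% of peaks by q, where the difference was 0.14 and the adjusted p 0.757.

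Cdh10, at chr15:18818869-19016206, encodes a type II cadherin known from neurons and from vessels of the brain. It was covered over 3.40 and 3.45 kb in OL, against 2.56 and 2.18 kb in OPC, and the groups did not overlap. The peak numbers of 11 and 14 in OL and 11 and 8 in OPC touched. The difference of 0.50 ± 0.15 had an adjusted p of 0.0265 by limma. The call was lost in 7 of 17 alternative settings, among them peak number (0.491), summits (0.477), no scaling (0.141) and 20 kb flanks (0.0936). The adjusted p became 0.096 without the 129O1 OL library, 0.111 without the EpiSC5 OL library and 0.161 without the EpiSC5 OPC library. The strongest Cdh10 peak was the same in both OL libraries, at chr15:18976272-18976584 in 129O1 and chr15:18976247-18976574 in EpiSC5. The authors' fold over background there was 14.2 and 17.3, at percentiles 97.7 and 99.2 of each list. Both OPC libraries also had a peak at this site, with a fold of 5.73 and 10.1. The strongest peaks in the OPC libraries lay elsewhere in the gene and stood at percentiles 70.2 and 86.1.

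Cdh22, at chr2:165111501-165234924, is a type II cadherin of the brain. Its coverage was 6.21 and 4.83 kb in OL, against 9.39 and 7.18 kb in OPC. Within each line OL was lower, by -0.58 in 129O1 and -0.55 in EpiSC5, and both OL libraries lay below both OPC libraries. The difference of -0.57 ± 0.15 had an adjusted p of 0.0132, which became 0.156 without the EpiSC5 OL library and 0.0998 without the 129O1 OPC library. Its 18 and 16 peaks in OL and 26 and 16 in OPC overlapped in number, and on peak numbers the adjusted p was 0.361. With median-of-ratios scaling it was 0.0724.

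Cdh18, at chr15:22548898-23477491, had little coverage for a gene of 928.6 kb. It passed the minimum coverage through OPC, so a lower value was bound to be seen. It was covered over 0.405 and 0.536 kb in OL, against 0.850 and 1.13 kb in OPC, so both OL values lay below both OPC values. The difference was -0.82 ± 0.24 with an adjusted p of 0.0185, which became 0.0651 without the 129O1 OL library and 0.247 without the EpiSC5 OPC library. The call was lost in 9 of 16 alternative settings, among them median-of-ratios scaling (0.0677), equal lists (0.117) and 20 kb flanks (0.106). In OPC most of this coverage lay within 1 kb of the annotated start, where it reached 174 and 232 bp in OL, against 553 and 723 bp in OPC.

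Of the other type II genes, Cdh11 encodes OB-cadherin, known from bone and mesenchyme. It was covered over 4.18 and 4.06 kb in OL and 4.23 and 3.76 kb in OPC. The groups overlapped, the difference was 0.04 ± 0.14, and its sign turned in 6 of the 17 alternative settings. Cdh19, a marker of Schwann cell precursors, had 0.106 and 0.915 kb in OL and 0.316 and 0.834 kb in OPC. Here the line and not the cell type set the order, the EpiSC5 libraries being the higher in both groups, and the adjusted p was 0.721. Cdh6 and Cdh8 were not called, with differences of -0.21 and 0.17. Cdh24 was not called either, and 97.9% of its covered sequence also belongs to other gene regions.

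Cdh5 encodes VE-cadherin, the cadherin of endothelial junctions, and was not tested. It had 0.158 and 0.380 kb in OL, against 0.655 and 0.582 kb in OPC, so both OL values were the lower. All 6 vascular and mesenchymal markers were tested, and 4 of them were called lower in OL, against 8.63% of all tested genes. Those were Flt1, Acta2, Pdgfrb and Col1a1, while the endothelial genes Pecam1 and Kdr were not called. The list summed to 5.16 and 5.90 kb in OL, against 9.21 and 9.15 kb in OPC. Pcdh12, a protocadherin of endothelium, had no peak in either OL library, against 0.195 and 0.483 kb in the OPC libraries, all of it shared with other gene regions. The part of vascular or mesenchymal cells in these values was not tested.

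**Figure D2:**
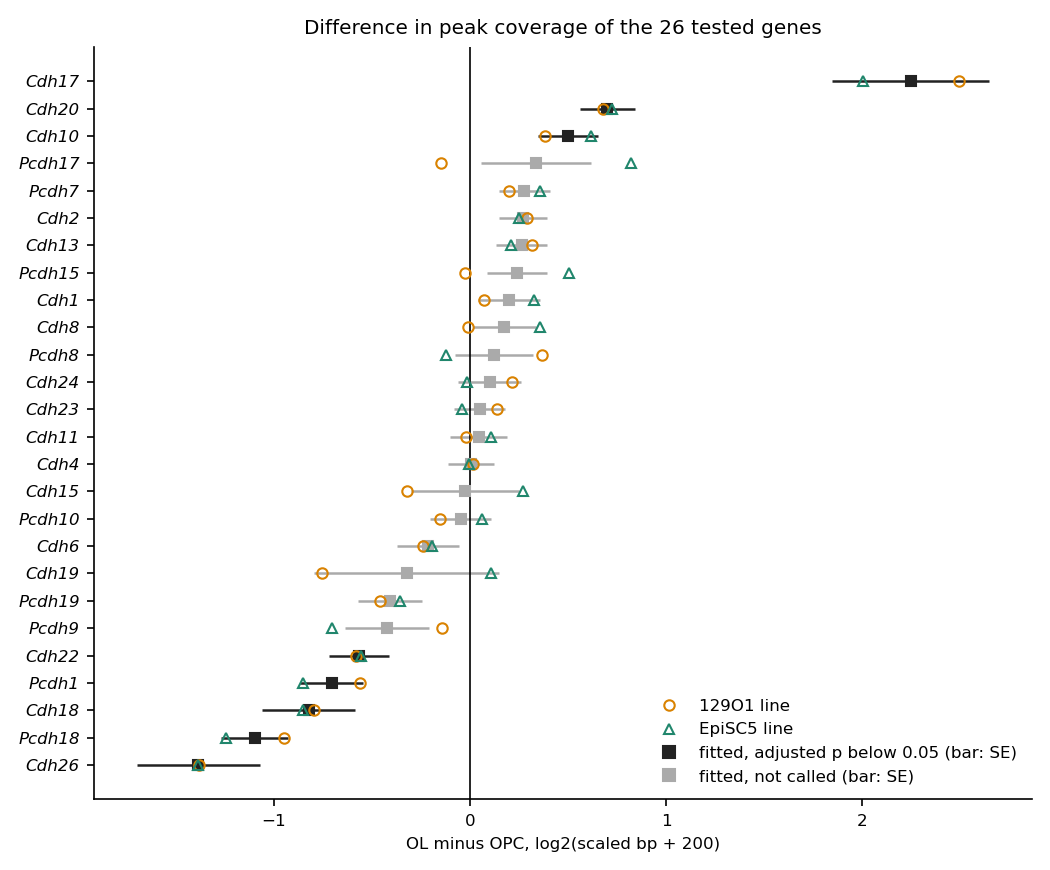
OL minus OPC difference in log2(scaled bp + 200) for the 26 tested genes, with squares for the fitted value and bars for its SE, dark where the adjusted p lay below 0.05, and open symbols for the difference within each line. The range runs from 2.25 at Cdh17 to -1.38 at Cdh26. The open symbols of each of the 8 called genes lie on the same side of 0, which follows largely from the call, made on the same values.

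The remaining cadherins depart from the classical form. Cdh17, or LI-cadherin, has more ectodomain repeats than the classical members, is known from intestine and liver, and lies at chr4:11758157-11817905. It showed the largest difference among the 26 tested genes, with 0.925 and 1.21 kb in OL, against no coverage and 0.152 kb in OPC. There were 3 and 7 peaks in OL, against 0 and 1 in OPC, and the groups did not overlap. The difference was 2.25 ± 0.40 with an adjusted p of 0.000676, a value that depends on the 200 bp added before the logarithm. A peak near chr4:11803861-11804235 was the strongest in all 3 libraries that had one. The authors' fold there was 13.2 and 15.5 in OL and 7.0 in the EpiSC5 OPC library, at percentiles 95.8 and 97.8 and at 51.3. The call held without either OPC library, the gene fell under the minimum coverage without either OL library, and without scaling the adjusted p was 0.0683.

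Cdh26, an atypical cadherin known from epithelia, lies at chr2:178430515-178487366. It was covered over 0.201 and 0.222 kb in OL, against 0.845 and 0.902 kb in OPC, a difference of -1.38 ± 0.31 with an adjusted p of 0.00412. The libraries of a group were close to each other and far from the other group, and the gene fell under the minimum without either OPC library. Cdh26 passed that minimum through OPC only, so a lower value was bound to be seen. With flanks of 20 kb in place of 2 kb the difference was -0.46 with an adjusted p of 0.0719. In OL the only peak lay near chr2:178477276-178477505, and in OPC nearly all coverage came from 1 stretch at chr2:178454726-178455592, with 739 and 867 bp in OPC, as listed and not scaled, and none in OL.

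Cdh13 encodes T-cadherin, which is held in the membrane by a lipid anchor and lacks the cytoplasmic tail. It had the largest coverage of the 34 genes, 26.4 and 19.6 kb in OL and 21.2 and 16.9 kb in OPC. The groups overlapped because 129O1 was the higher line in both cell types, and within each line OL was higher, by 0.32 and 0.21. The difference of 0.26 ± 0.13 had an adjusted p of 0.174, which fell to 0.00991 without the EpiSC5 OL library and to 0.0148 without the 129O1 OPC library. Cdh23, a tip-link cadherin of hair cells, was not called, and 59.9% of its covered sequence lies in other gene regions too. Cdh16, the kidney cadherin, was not tested, with 0.362 and 0.585 kb in OL and 0.352 and 0.606 kb in OPC.

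All 8 delta protocadherins among the 34 genes, non-clustered genes with conserved cytoplasmic motifs, were tested. None was called higher by limma, against 1 at an unadjusted p under 0.05, and Pcdh1 and Pcdh18 were called lower. Over all tested genes 11% were called higher and 8.63% lower. The median difference of the 8 was -0.23, against -0.02 over all tested genes. Pcdh18, at chr3:49743291-49757383, had 0.799 and 0.675 kb in OL, against 1.73 and 1.88 kb in OPC. Both OL libraries had 1 peak, against 4 and 2 in the OPC libraries, and the groups did not overlap. The peak at the start was the strongest in every library, and folds were not compared between libraries of unknown depth. The authors' fold there was 8.95 and 8.84 in OL, against 8.20 and 8.55 in OPC. Its percentiles were 74.5 and 70.8 in OL, against 64.8 and 67.8 in OPC. The difference of -1.10 ± 0.17 had the lowest adjusted p of the family, 0.000209, and was called whichever library was left out. Pcdh1, at chr18:38185914-38212048, had 1.96 and 1.59 kb in OL, against 2.99 and 3.03 kb in OPC. Its difference was -0.70 ± 0.16 with an adjusted p of 0.00399, and 0.0537 without the EpiSC5 OL library.

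The lower calls were made on covered length, with median peak widths of 190 and 192 bp in OL, against 201 and 237 bp in OPC. When peaks were counted, or each was replaced by 200 bp around its summit, 2 of the family's genes were called, Cdh17 and Cdh20, and none was lower. Lower calls were also fewer over all genes, 254 of 12465 by number and 226 of 10304 by summits, beside 517 and 516 higher. The Pcdh1 difference was -0.16 by number and -0.22 by summit, against -0.70 by covered length. Cdh22 differed by -0.38 on both, against -0.57. Cdh18 differed by -0.80 by number and -0.79 by summit, against -0.82. The strongest Pcdh1 peak was in the same place in all 4 libraries, at percentiles 98.4 and 99.2 in OL and 99.7 and 98.7 in OPC, with 7 and 8 peaks in OL and 10 and 6 in OPC. Cdh26 was too sparse for either count and Pcdh18 for the summits, while by peak number Pcdh18 differed by -1.03 with an adjusted p of 0.0882.

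The other delta protocadherins of the family were not called. Pcdh7 had 7.60 and 8.69 kb in OL, against 6.61 and 6.74 kb in OPC, with 34 and 47 peaks in OL and 27 and 30 in OPC. Both OL libraries were the higher, and the difference of 0.28 ± 0.13 had an adjusted p of 0.150, which became 0.028 without flanks and 0.0318 with flanks of 20 kb. Its strongest peak in OL, near chr5:58049579-58049807, was at percentile 99.9 of both OL lists. Pcdh19, a gene linked to epilepsy in humans, had 1.73 and 1.49 kb in OL, against 2.45 and 1.96 kb in OPC (difference -0.41 ± 0.16, adjusted p = 0.0939).

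Pcdh9 and Pcdh17 showed how far 1 library could decide a value. Pcdh9 had 10.4 and 5.12 kb in OL and 11.5 and 8.47 kb in OPC, so OL was lower in both lines while the groups overlapped. Its difference of -0.42 ± 0.21 had an adjusted p of 0.190. Without the 129O1 OL library it was -0.92 with an adjusted p of 0.00113, without the EpiSC5 OL library 0.07, and without the EpiSC5 OPC library -0.64 with an adjusted p of 0.000509. Pcdh17 had 2.36 and 1.71 kb in OL and 2.63 and 0.880 kb in OPC, with 12 and 8 peaks in OL and 10 and 3 in OPC. The low EpiSC5 OPC library stood apart, and the difference of 0.34 ± 0.28 became 1.03 with an adjusted p of 0.000157 without the 129O1 OPC library and -0.36 without the EpiSC5 one. Pcdh15, the other tip-link gene, has no delta motifs and is highly expressed in OPCs of the mouse brain. It had 8.95 and 8.66 kb in OL and 9.09 and 6.05 kb in OPC, which overlap. The difference of 0.24 ± 0.15 had an adjusted p of 0.323, and 0.00733 without the 129O1 OPC library. The strongest Pcdh15 peak lay near chr10:73144076-73144462 in both OL libraries, at percentiles 99.7 and 99.9, and near chr10:74114140-74114417 in both OPC libraries, at 97.5 and 98.6.

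On chromosomes 1, 2 and 15, cadherin genes that follow each other had different results. On chromosome 2, Cdh22 and Cdh26 were called lower, and Cdh4, which lies beyond Cdh26, was not called, with a difference of 0.01. On chromosome 1, Cdh20 was called higher, Cdh7 had no peak, and Cdh19 was not called. On chromosome 15, Cdh10 was called higher and Cdh18 lower, Cdh6 was not called, and Cdh12 between Cdh10 and Cdh18 had at most 0.117 kb in any library over a gene of 1149.5 kb. Cdh9 there had no peak in either OL library, against 0.254 kb and none in OPC. Per kb of gene region, mean coverage in OL and OPC was 32.8 and 19.9 bp at Cdh20, 17.0 and 11.8 bp at Cdh10, 0.505 and 1.06 bp at Cdh18 and 0.0408 and 0.0508 bp at Cdh12. On this scale the densest genes were short ones, Cdh24 with 120.4 bp in OL and 111.9 bp in OPC and Pcdh8 with 115.6 bp in OL and 105.9 bp in OPC.

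**Figure D3:**
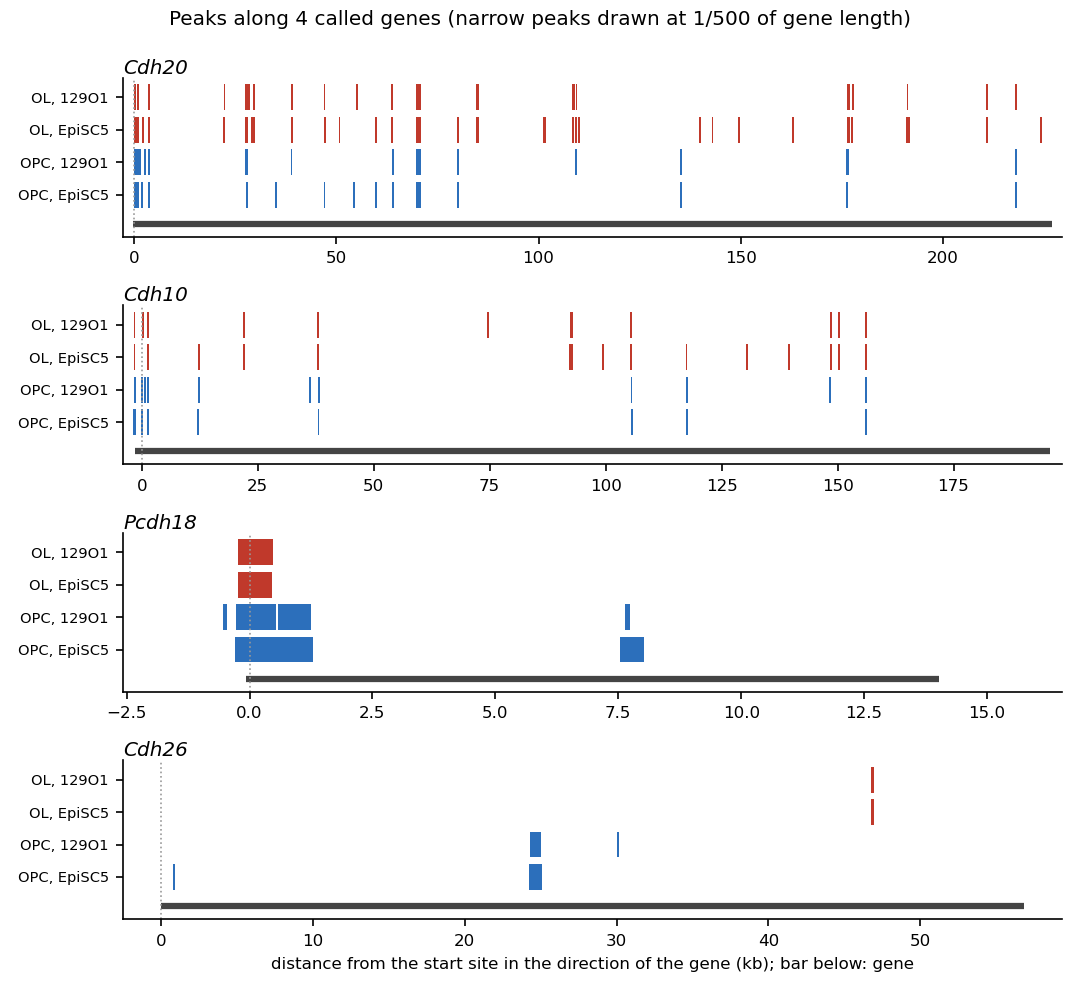
Peaks of each library along Cdh20, Cdh10, Pcdh18 and Cdh26, by distance in kb from the annotated start in the direction of the gene, with OL libraries in red above OPC libraries in blue. Cdh20 has 26 and 36 peaks in OL against 15 and 15 in OPC spread over the gene, Pcdh18 has 1 in each OL library against 4 and 2 in OPC, and the large OPC peak of Cdh26 has no counterpart in OL.

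Coverage was then split into sequence within 1 kb of an annotated start and sequence beyond it, for the 22 genes with a start in the RefSeq promoter table. This split was chosen after values had been seen and carries no test. At the start 11 genes passed the minimum of 500 bp. Both OL libraries lay below both OPC libraries at 8 of them, Cdh8, Cdh20, Cdh22, Cdh24, Pcdh7, Pcdh17, Pcdh18 and Pcdh19, and the reverse held at 0. Over 9381 genes with such coverage the shares were 28.6% below and 4.67% above. The share below depends on the scaling: without scaling it was 71.6% of all genes, beside 8 of the family, and with median-of-ratios scaling 35%, beside 7. The median difference at the start was -0.29 over the 11 genes and -0.07 over all genes.

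Beyond the starts the pattern was another. Of 14 genes past the minimum there, both OL libraries lay above both OPC libraries at 5 and below them at 2, against 41.9% and 24.4% of 6444 genes. Cdh20 showed both sides of this. Within 1 kb of its start 835 and 854 bp were covered in OL, against 1152 and 1037 bp in OPC. Beyond it 6173 and 7321 bp were covered in OL, against 3155 and 3832 bp in OPC, so the higher coverage of this gene in OL lay away from its start. Cdh8, Cdh24 and Pcdh7 likewise had less coverage at the start and more beyond it in both OL libraries. Cdh10, whose start coverage was under the minimum, had 171 bp and none at the start in OL, against 520 and 374 bp in OPC, and 3231 and 3450 bp beyond it in OL, against 2044 and 1805 bp in OPC. At Pcdh18 the start held 799 and 675 bp in OL, against 1349 and 1163 bp in OPC, and the rest of the region had no peak in OL, against 377 and 712 bp in OPC.

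**Figure D4:**
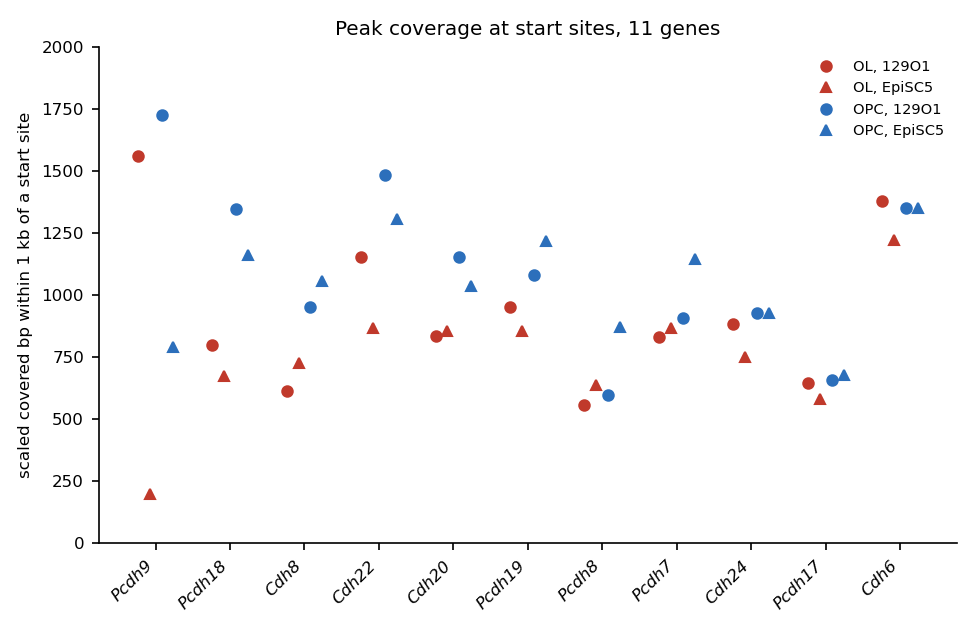
Scaled covered bp within 1 kb of an annotated start for the 11 genes past the minimum, with OL in red, OPC in blue, circles for 129O1 and triangles for EpiSC5. Both red points lie below both blue points at 8 genes, and the groups overlap at Pcdh9, Pcdh8 and Cdh6.

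Promoters are shown for 6 of the 8 called genes, not for Cdh17 and Pcdh1, whose start windows were not analysed here. In Cdh10, Cdh18, Cdh20, Cdh22 and Pcdh18 the start window was less covered in both OL libraries than in both OPC libraries, and in Cdh26 the groups overlapped. The start windows of Cdh10, Cdh18 and Cdh26 were under the 500 bp minimum. Of all genes past it, 28.6% were less covered at the start in this way, and 71.6% without scaling. The lower calls of Cdh18, Cdh22 and Pcdh18 include this coverage. The sequences are RefSeq's, from GRCm38.p6, and hold the 250 bases before the annotated start, 5′ to 3′ on the strand of the gene. Capitals mark the GC box GGGCGG, sought on both strands, which 32.7% of 32851 promoters of this length hold.
Cdh20, chr1:104768270-104768519, plus strand: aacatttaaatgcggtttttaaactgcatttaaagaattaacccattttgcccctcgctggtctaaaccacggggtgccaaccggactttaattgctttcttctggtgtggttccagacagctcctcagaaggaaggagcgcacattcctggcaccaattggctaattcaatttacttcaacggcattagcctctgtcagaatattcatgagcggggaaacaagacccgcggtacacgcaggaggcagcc
Cdh10, chr15:18820079-18820328, plus strand: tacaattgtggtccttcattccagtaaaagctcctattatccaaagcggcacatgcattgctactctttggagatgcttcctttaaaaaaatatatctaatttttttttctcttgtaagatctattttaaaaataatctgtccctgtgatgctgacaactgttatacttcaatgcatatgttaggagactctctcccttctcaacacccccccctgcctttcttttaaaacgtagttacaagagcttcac
Cdh22, chr2:165234738-165234987, minus strand: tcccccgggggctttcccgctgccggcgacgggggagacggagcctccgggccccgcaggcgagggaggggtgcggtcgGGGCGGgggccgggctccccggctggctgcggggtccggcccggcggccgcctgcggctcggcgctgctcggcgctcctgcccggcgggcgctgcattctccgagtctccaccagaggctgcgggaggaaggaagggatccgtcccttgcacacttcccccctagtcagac
Cdh18, chr15:23036213-23036462, plus strand: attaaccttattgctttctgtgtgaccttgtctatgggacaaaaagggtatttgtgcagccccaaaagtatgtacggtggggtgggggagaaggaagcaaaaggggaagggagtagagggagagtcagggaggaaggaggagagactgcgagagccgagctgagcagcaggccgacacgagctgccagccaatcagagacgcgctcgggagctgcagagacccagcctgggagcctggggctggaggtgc
Cdh26, chr2:178430265-178430514, plus strand: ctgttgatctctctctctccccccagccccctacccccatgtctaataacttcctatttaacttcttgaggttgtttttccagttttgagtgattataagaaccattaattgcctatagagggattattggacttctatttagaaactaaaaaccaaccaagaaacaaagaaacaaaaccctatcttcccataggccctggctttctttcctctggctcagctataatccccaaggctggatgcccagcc
Pcdh18, chr3:49757317-49757566, minus strand: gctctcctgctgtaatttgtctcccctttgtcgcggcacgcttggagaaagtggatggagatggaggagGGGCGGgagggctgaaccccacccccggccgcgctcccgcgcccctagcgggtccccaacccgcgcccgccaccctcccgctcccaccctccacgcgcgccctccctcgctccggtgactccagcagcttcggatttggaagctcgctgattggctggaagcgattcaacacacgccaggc
The 6 promoters differ in base composition. Those of Cdh22 and Pcdh18 are rich in G and C, at 77.6% and 68%, and hold 30 and 23 CpG dinucleotides and 1 GC box each, against a median of 6 CpG over all promoters. Both genes were covered at the start in all 4 libraries, and so were Cdh20 and Cdh18. The promoters of Cdh20, Cdh18 and Cdh10 hold 10, 8 and 2 CpG and no GC box. That of Cdh26 holds 0 CpG, and no OL library had a peak within 1 kb of its start. The E-box CAGGTG, a target of Snail and Zeb proteins that repress Cdh1, is in none of the 6, and in 17.2% of all promoters on either strand. The SRY-box core ACAATG, the kind of site that Sox proteins bind, is also in none, and in 10.7% of all promoters.

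Peaks of the 4 lists that overlapped or touched were merged into regions, which gave 783 in the 34 genes. Peaks from all 4 libraries were present in 159 of them, 20.3%, against 26.8% in all protein-coding genes. A region was OL-only where both OL libraries and no OPC library had a peak, and OPC-only in the reverse case. OL-only regions numbered 136, or 17.4%, against 16.8% of 141580 regions in all protein-coding genes. OPC-only regions numbered 67, or 8.56%, against 8.84%. Both classes thus took about the same share in the 34 genes as in other genes, with 2.03 OL-only regions for each OPC-only one and 1.9 in all genes. Leaving out a library changes the class rule, since 1 peak list then decides for that group. The ratio was 1.1 without the 129O1 OPC library and 0.744 without the EpiSC5 OPC library, against 1.03 and 0.953 in all genes. It was 2.71 without the 129O1 OL library and 2.5 without the EpiSC5 OL library, against 2.81 and 1.93 in all genes. These values do not show how far the ratio rests on 1 library.

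These regions were spread unevenly over the genes. Cdh13 held 158 regions, 37 of them OL-only and 11 OPC-only, Pcdh15 held 15 and 5 in these classes, and Cdh2 held 14 and 4. At Cdh20 9 regions were OL-only and 1 was OPC-only, and at Cdh22 the numbers were 1 and 3. Cdh4, with a difference near 0, still held 18 OL-only and 11 OPC-only regions. Distance to a start was known for 61 of the OL-only regions and none lay within 1 kb, while 1 of 35 OPC-only regions and 22 of 92 regions present in all libraries did. Median widths were 228 bp for OL-only, 232 bp for OPC-only and 462 bp for regions in all libraries.

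The longest coverage of any OL-only region was at chr15:18912376-18913285, inside Cdh10 and 92047 bp from its start, with 732 and 839 bp covered, not scaled as for all single regions, and an authors' fold of 10.2 and 12.4. The next 3 lay inside Cdh13, at chr8:118676853-118677525, chr8:118609409-118609999 and chr8:118590666-118591206. Of the OPC-only regions the largest was the Cdh26 stretch described above, 24211 bp from the start. The next was chr14:93458212-93459041, in the body of Pcdh9, with 558 and 755 bp covered in OPC and a fold of 8.61 and 13.7. A further 2 lay in Cdh13, at chr8:118601731-118602441 and chr8:118518378-118519139. Cdh13, not itself called, thus held both OL-only and OPC-only regions among the largest of the family.

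**Figure D5:**
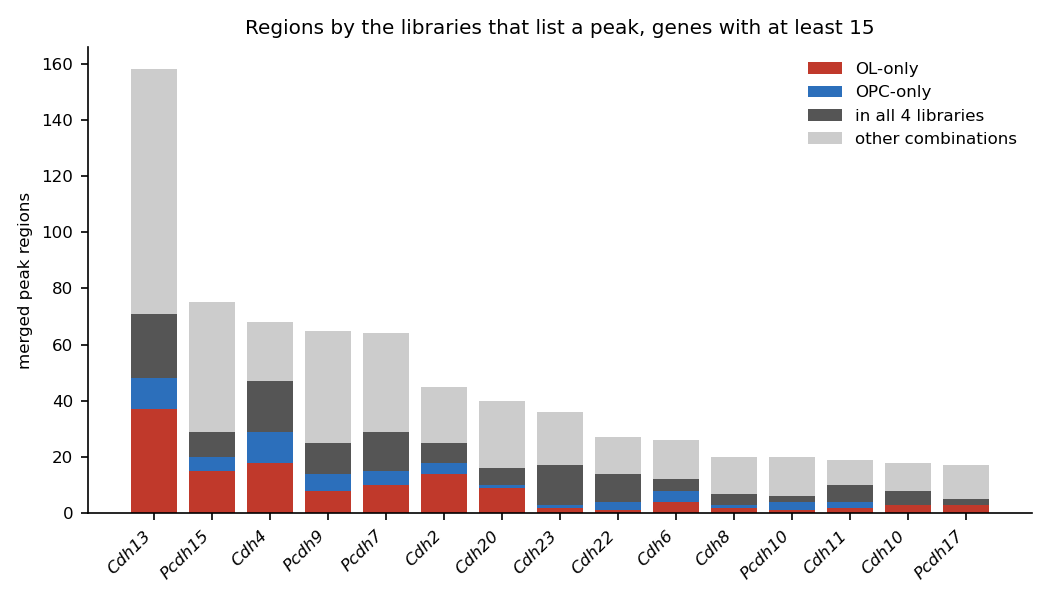
Number of merged peak regions per gene for the genes with at least 15, stacked by class, with OL-only in red, OPC-only in blue, regions in all 4 libraries in dark grey and other combinations in light grey. Cdh13 has 158 regions, and the red part is larger than the blue at Cdh13, Pcdh15, Cdh2 and Cdh20.

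Other genes of cadherin adhesion were read from lists of 70 symbols outside the protocadherin clusters. Of 58 tested, 9 were called higher and 7 lower, and all counts of such lists stand against the 11% higher and 8.63% lower of all tested genes. Without scaling none of the 58 was called, and with median-of-ratios scaling 8 were higher and 2 lower. Among the 8 catenins, which tie cadherins to the cytoskeleton, 1 was higher and 2 were lower. Ctnnal1, an alpha-catenin-like gene, had 5.39 and 4.56 kb in OL, against 2.37 and 3.02 kb in OPC (difference 0.84 ± 0.16, adjusted p = 0.000980). Jup, the plakoglobin gene, had 0.899 and 1.13 kb in OL, against 1.55 and 2.43 kb in OPC (difference -0.82 ± 0.19, adjusted p = 0.00490). Ctnnd1, which encodes the p120 catenin that keeps cadherins at the membrane, differed by -0.54 ± 0.17 (adjusted p = 0.0314). In none of the 3 did the groups overlap.

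Of 17 tested genes of the wider cadherin superfamily, 0 were called higher and 2 lower by limma, a count near the 8.63% lower of all genes. At an unadjusted p under 0.05 the numbers were 0 and 3. The desmosomal gene Dsg2 had 0.199 and 0.135 kb in OL, against 0.760 and 1.08 kb in OPC (difference -1.60 ± 0.34, adjusted p = 0.00253). It passed the 500 bp minimum through OPC only, so a lower value was bound to be seen there. Dchs2 differed by -0.58 ± 0.18 (adjusted p = 0.0304). Among junction linkers and nectins, Afdn, which links nectins to actin, differed by 0.60 ± 0.14 (adjusted p = 0.00665), with 51.5% of its coverage shared with other gene regions. Nectin1 differed by -0.54 ± 0.15 (adjusted p = 0.0166). Among proteases, Adam17, a sheddase of the cell surface, was higher by 0.84 ± 0.16 (adjusted p = 0.000925).

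Of 6 repressors of cadherin genes 2 were called lower and 0 higher by limma, against 2 and 1 at an unadjusted p under 0.05, with 8.63% and 11% over all genes. Twist2 had no peak and 0.202 kb in OL, against 1.47 and 0.698 kb in OPC (difference -2.11 ± 0.42, adjusted p = 0.00170). It passed the 500 bp minimum through OPC only, so a lower value was bound to be seen there. Twist1 differed by -0.74 ± 0.21 (adjusted p = 0.0178). Twist1 and Twist2 are mesenchymal transcription factors, and 4 of the 6 vascular and mesenchymal markers were called lower, as given at Cdh5. Of 10 genes acting with protocadherins, among them the actin regulators of the WAVE complex, 4 were called higher and 0 lower by limma, against 6 and 0 at an unadjusted p under 0.05, with 11% and 8.63% over all genes and no call here without scaling. Wasf3 had 3.31 and 3.32 kb in OL, against 1.25 and 1.69 kb in OPC (difference 1.09 ± 0.16, adjusted p = 0.000181), Cyfip1 differed by 0.66 ± 0.15 and Nckap1 by 0.61 ± 0.17. These are subunits of that complex.

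The clustered protocadherins, which lie on chromosome 18 and use alternative first exons, were mostly called lower. Of 39 tested genes 32 were called lower and 0 higher by limma, against 36 and 0 at an unadjusted p under 0.05, with a median difference of -0.42. Over all genes 8.63% were lower. Their annotated intervals overlap, all covered sequence of the named ones is shared, and the 32 calls are not 32 separate measurements. Pcdhgc4 had 3.40 and 2.96 kb in OL, against 4.63 and 4.69 kb in OPC (difference -0.53 ± 0.15, adjusted p = 0.0152). Without scaling 0 were called lower, with median-of-ratios scaling 2, with 20 kb flanks 2 and without flanks 4. With cell line as a block 4 were called. Without the 129O1 OL library 31 were called, without the EpiSC5 OL library 0, without the 129O1 OPC library 13 and without the EpiSC5 OPC library 4.

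Between the lines, 15 of the 26 tested genes had differences of the same sign and 11 of opposite sign, with 1 library of each cell type per line and so no test within a line. All 8 called genes were among the 15, but calls and line differences come from the same 4 libraries, so this is no separate support. The share of like signs over all tested genes is not given here. In them the 129O1 and EpiSC5 differences lay closest at Cdh26, with -1.38 in both lines, and farthest apart at Cdh17, with 2.49 and 2.0. Of genes not called, Cdh2, Cdh13, Pcdh7 and Cdh1 were higher and Cdh6, Pcdh19 and Pcdh9 lower in OL of both lines.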

How the data were processed

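Per the labels' protocols, single-end reads of 50 bp were sequenced, with a stated 100 M reads per sample. The submitters' processing notes name the build mm10 and the tools MACS2, Picard, Bowtie2 2.3.2 and Trim Galore 0.3.1. Not given in the sources used here are the MACS2 version, its threshold and any shift for the Tn5 cut. The authors deposited 1 peak list per library, called without pooling. Each deposited peak has a whole-number score, a fold (a linear ratio over background), −log10 p and −log10 q values, and a summit position. These authors' values served only for describing, ranking and filtering peaks of the same list. Lowest −log10 q values lay between 3.003 and 3.034.

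Genes came from RefSeq on GRCm38.p6, the assembly of mm10. Peaks in each gene with 2 kb on either side were merged, scaled so that all list totals equal their mean, taken as log2 with 200 bp added, kept at a mean of at least 500 bp and fitted in limma 3.58.1 with R 4.3.3 (trend, two-sided, Benjamini-Hochberg over 14543 genes, threshold 0.05). The fit was also run on simulated data, with libraries drawn independently and changes planted only in genes well above the 500 bp minimum. That run does not cover sparse genes such as Cdh17, Cdh26 and Cdh18. Libraries of a line are paired by origin: their deviations from the group means correlated at 0.287 over the 14543 genes, and cell line as a block was fitted as an alternative. Other alternatives were the scaling, the added constant, the minimum, peak number, 200 bp at summits, equal lists, the best 50% of peaks by q, the flanks and leaving out each library.

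Values in all libraries are given for every called gene and for Cdh1, Cdh2, Cdh5, Cdh11, Cdh13, Cdh19, Cdh20, Pcdh7, Pcdh9, Pcdh15 and Pcdh17. Named are also up to 3 called genes of each related list with the largest difference and the 4 OL-only and 4 OPC-only regions with most covered sequence. Other genes are named by their subfamily, chromosome or start coverage, chosen after their values were seen. Genes and lists were chosen with earlier results of these data known. A few genes that this rule takes from the related lists do not appear: they are not reported here. Of the 34 genes 22 matched the RefSeq promoter table.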

Additional observations from a re-analysis of the deposited data

Results flagged for a closer look

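At 11 of the 26 tested genes the OL minus OPC difference had opposite signs in the lines. The lines' differences were not compared by a test, since each rests on 1 OL and 1 OPC library. The EpiSC5 difference exceeded the 129O1 difference by 0.97 at Pcdh17, 0.86 at Cdh19, 0.59 at Cdh15, 0.53 at Pcdh15, 0.36 at Cdh8, 0.21 at Pcdh10 and 0.12 at Cdh11 on the log2 scale. The EpiSC5 minus 129O1 value was -0.49 at Pcdh8, -0.23 at Cdh24, -0.18 at Cdh23 and -0.02 at Cdh4. At Pcdh17 the OPC library of EpiSC5 had 0.880 kb and 3 peaks, against 2.63 kb and 10 peaks in the OPC library of 129O1. None of the 11 genes was called by limma over all 4 libraries, and none had an unadjusted p under 0.05. Opposite signs in the lines make a call unlikely, as both come from the same values.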

How the results depend on the processing

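Against 8 genes called in the family, 2 were called without scaling, 2 by number of peaks and 2 by summits, 5 with the best 50% of peaks and 5 with 20 kb flanks, and between 5 and 9 when a library was left out. The cell-line block kept 3 higher and 5 lower. Related genes outside the clusters numbered 16, and 0 without scaling, 10 with median-of-ratios scaling, 6 by number, 5 by summits, 5 with the best 50% and 10 to 15 with a library left out. Clustered protocadherins numbered 32, and 0 without scaling, 2 with median-of-ratios scaling, 2 without the minimum, 15 by number, 14 by summits, 7 with equal lists, 21 with the best 50%, 4 without flanks, 2 with 20 kb flanks, 4 with the cell-line block and 0 to 31 with a library left out. OL-only regions numbered 136, then 78 with the best 50% and 153 to 225 with a library left out. OPC-only regions numbered 67, then 27 and 76 to 215. Leaving out a library loosens the rule for both classes, so the larger counts follow from the rule. Genes of like sign in both lines numbered 15 of 26, and 24 of 31 with 20 kb flanks. Signs turned at Cdh1 (-0.208 by number, -0.206 by summits), Cdh11 (-0.069 without scaling, -0.004 with scaling to gene regions, -0.067 by number and by summits, -0.073 with 20 kb flanks) and Pcdh17 (-0.005 with 20 kb flanks). With a library left out the ranges were -0.037 to 0.126 at Cdh11, -0.825 to 0.611 at Cdh19, -0.922 to 0.074 at Pcdh9, -0.046 to 0.526 at Pcdh15 and -0.357 to 1.032 at Pcdh17. The cause was not tested. Start windows with both OL libraries below both OPC libraries numbered 8 without scaling and 7 with median-of-ratios scaling, beside 71.6% and 35% of all genes. A site without a peak may still be open below the caller's threshold, and precision at unknown depth cannot be stated.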
